A study of Mus musculus with 2 samples.

Results

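Expression of 10 endothelial receptor and junction genes was examined on the arrays of fetal mouse palate: Tie1, Tek, Pecam1, Robo4, Cdh5, Kdr, Flt1, Flt4, Emcn and Egfl7. They were represented by every probe set that the platform annotation assigns to exactly 1 of these genes, which gave 18 of the 45101 probe sets on the array and 10 of 18193 genes. The tissue was palate at E18.5 (embryonic day) from mice of the BALB/c background. One array carried RNA of wild-type palate and the other RNA of palate labelled as null for both Myf5 and MyoD, the transcription factors that commit cells to skeletal muscle. The series was titled as a study of what skeletal muscle does in palate development, and the genotypes are its only comparison. Whether fetuses were pooled, and what was deleted from Myf5 and MyoD, is not stated in the labels. With 1 array per genotype there is no replicate check of any difference below, and no p-value is given.

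Endothelial cells line all blood and lymph vessels. VEGF ligands act on them through the receptor tyrosine kinases Kdr, Flt1 and Flt4, which drive vessel growth, limit it by trapping ligand, and direct lymphatic growth, in that order. Angiopoietins act through Tek, with Tie1 as a partner receptor that binds no angiopoietin by itself, and this system keeps vessels mature and tight. Cdh5 (VE-cadherin) and Pecam1 hold neighbouring endothelial cells together at their junctions, Robo4 stabilises the vessel wall, Emcn is a surface sialomucin of capillaries and veins, and Egfl7 is a matrix protein secreted by endothelium. Many endothelial genes are controlled by transcription factors of the ETS family, whose recognition core is GGAA.

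The promoters of Tie1, Tek, Robo4 and Kdr are shown because Tie1 and Robo4 were among the lowest members on the array labelled double null while Tek, the partner of Tie1, and Kdr, the main VEGF receptor, were nearly level. Each is the 250 bases before the annotated start, 5′ to 3′ on the gene's strand, from the RefSeq promoter table of build GRCm38.p6. Capitals mark GGAA and its reverse complement TTCC.
Tie1 (chr4:118489850-118490099, - strand): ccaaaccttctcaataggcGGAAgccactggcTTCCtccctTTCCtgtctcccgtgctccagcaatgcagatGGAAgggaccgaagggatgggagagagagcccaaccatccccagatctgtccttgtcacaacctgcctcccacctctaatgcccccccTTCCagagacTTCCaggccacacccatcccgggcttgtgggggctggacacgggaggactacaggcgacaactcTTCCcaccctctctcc
Tek (chr4:94739039-94739288, + strand): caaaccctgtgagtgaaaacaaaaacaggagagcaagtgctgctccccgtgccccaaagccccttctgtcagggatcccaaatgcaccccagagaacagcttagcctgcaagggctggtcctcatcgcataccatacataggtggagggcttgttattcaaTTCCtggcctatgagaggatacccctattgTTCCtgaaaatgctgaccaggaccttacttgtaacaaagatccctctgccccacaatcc
Robo4 (chr9:37401722-37401971, + strand): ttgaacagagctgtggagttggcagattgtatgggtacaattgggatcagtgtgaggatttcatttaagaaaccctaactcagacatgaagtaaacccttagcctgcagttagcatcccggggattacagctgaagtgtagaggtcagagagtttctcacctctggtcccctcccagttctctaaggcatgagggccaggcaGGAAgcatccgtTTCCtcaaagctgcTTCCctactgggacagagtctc
Kdr (chr5:75978456-75978705, - strand): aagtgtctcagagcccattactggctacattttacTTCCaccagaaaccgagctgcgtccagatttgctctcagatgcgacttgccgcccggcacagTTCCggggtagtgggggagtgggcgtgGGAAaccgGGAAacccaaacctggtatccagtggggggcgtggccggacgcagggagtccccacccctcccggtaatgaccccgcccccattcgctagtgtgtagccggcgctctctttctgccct
On both strands, GGAA occurred 7 times before Tie1, 3 times before Robo4, 2 times before Tek and 4 times before Kdr. Over all 32851 promoter windows of this length the median was 3 matches, with quartiles of 2 and 4, and 93.4% held at least 1. All 10 windows listed for 8 members (Egfl7 has 3 starts) held GGAA. The longer form AGGAAG, which contains GGAA, was held by 6 of the 10 windows and by 29.5% of all windows. It occurred 1 time before Tie1 and before Robo4, 2 times before Flt1 and before Emcn, and not before Tek, Kdr or Flt4. The 3 windows of Egfl7 held 3, 1 and 0 matches. Such matches describe the letters only. Cdh5 and Pecam1 were not matched in the table.

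Levels below are MAS5 signals after scaling of both arrays to each other, first for wild type and then for the array labelled double null. A negative log2 ratio means a lower signal for the array labelled double null. Signals under 287, the 40th percentile, were raised to that floor before log2 was taken, so a fold against such a signal is a lower bound. Each gene was represented by its brightest probe set, by mean log2 signal over both arrays, and is called measured if the higher of its signals was 658 (the 60th percentile) or more. All 10 genes and 15 of their 18 probe sets were measured. The probe sets that were not measured were 1 each of Cdh5, Flt1 and Flt4. The only spread that these arrays give is that between probe sets of one gene, whose log2 ratios had a pooled SD of 0.51 over 10187 measured probe sets of 4029 genes. It was 0.56 where the brighter array lay under the 75th percentile (1479) and 0.48 above it, and it does not cover differences between animals.

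Of the 10 genes 3, namely Tie1, Pecam1 and Robo4, had signals at least 2-fold lower on the array labelled double null, while 0 passed 2-fold upwards and 7 stayed within it. Over all 11239 measured genes 4.22% passed 2-fold downwards and 3.55% upwards. The median log2 ratio of the members was -0.27, or 1.21-fold lower, with 7 of 10 below 0, against a median of 0.07 and 43.5% below 0 over all measured genes. The log2 ratios of the members thus varied, and the 7 between ran from -0.69 to 0.51. With 1 array per genotype it cannot be told how much of this variation is noise. In bulk tissue, fewer endothelial cells and less RNA per endothelial cell cannot be told apart.

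**Figure D1:**
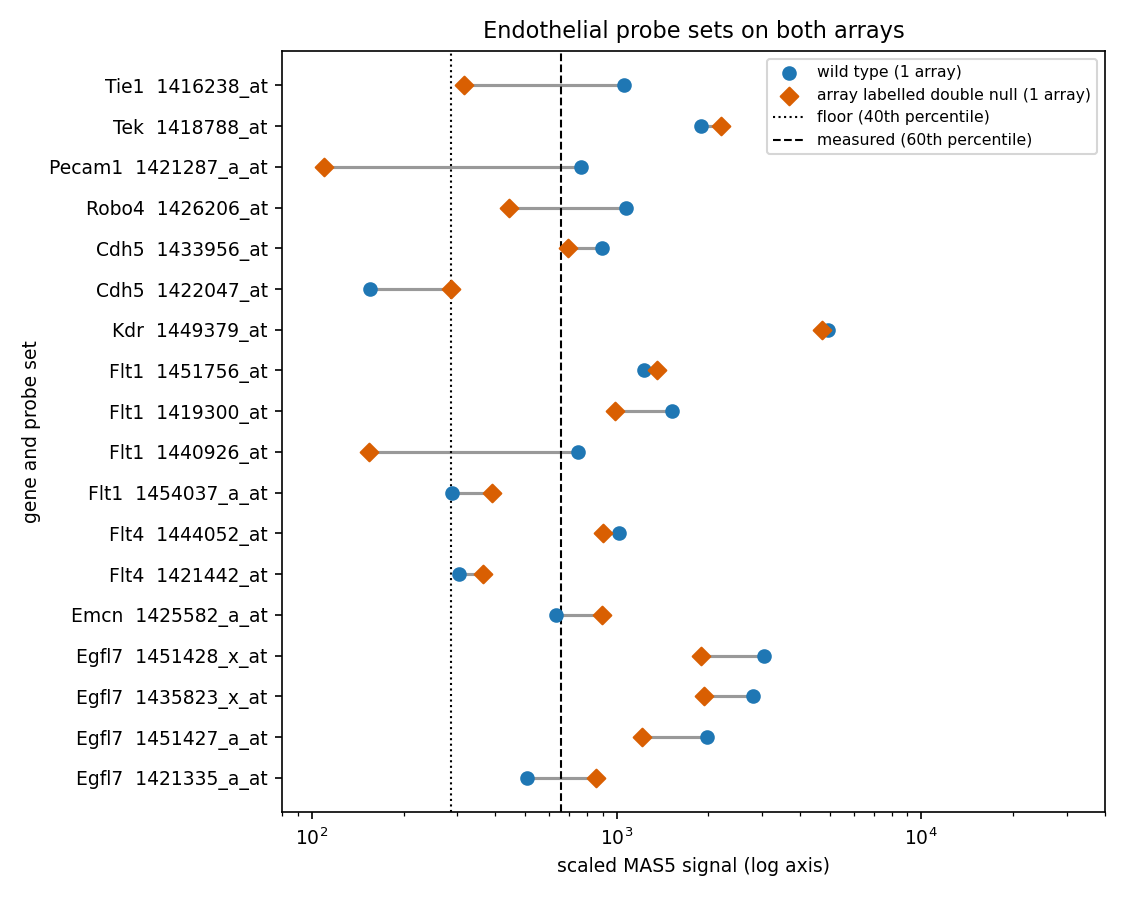
Scaled MAS5 signal (log axis) of the 18 endothelial probe sets, 1 row each, for wild type (circles) and the array labelled double null (diamonds), with the floor of 287 and the measured level of 658 as vertical lines. Tie1, Pecam1, Robo4 and 1 Flt1 probe set show the widest gaps, and all but Robo4 lie close to or under the floor on the array labelled double null.

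The angiopoietin receptor pair was split. The Tie1 signal was 1054 in wild type and 315 for the labelled double null (probe set 1416238_at), which is 3.35-fold lower and a log2 ratio of -1.74. Only 0.86% of measured genes had a lower ratio. The second value lay just above the floor. Tek, the signalling receptor of the pair, gave 1897 and 2205 (1418788_at), a log2 ratio of 0.22. This is smaller than the spread between probe sets of one gene. The log2 ratio of Tie1 lay more than 3 of those SDs below 0, and that of Tek less than 1 above it, but each rested on 1 probe set and 1 array per genotype.

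Of the junction proteins, Pecam1 was lower and Cdh5 moved less than the spread. Pecam1, an adhesion molecule of endothelium that platelets and leukocytes also carry, had signals of 762 and 109 (1421287_a_at). The second signal was under the floor, so the gene was at least 2.65-fold lower, and the ratio of the unfloored signals was -2.80 on the log2 scale. On the array labelled double null this probe set ranked at the 19.8th percentile, where signal and background cannot be told apart without detection calls. Cdh5, the cadherin of endothelial adherens junctions, had 893 and 692 (1433956_at), a log2 ratio of -0.37. Its other probe set (1422047_at) gave 155 and 286, both under the floor, and no fold is given for it.

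Robo4, an endothelial receptor of the Roundabout family, was lower, with signals of 1071 and 444 (1426206_at). This is 2.41-fold lower, a log2 ratio of -1.27, and both signals were above the floor. Among measured genes 2.38% had a lower ratio. Tie1, Pecam1 and Robo4 each had 1 probe set, a wild-type signal under the 75th percentile, and a signal below 658 on the array labelled double null. Among the 3318 measured genes whose brighter array lay between the 60th and 75th percentile, 6.96% passed 2-fold downwards and 4.73% upwards, against 3.07% and 3.06% of the 7921 brighter genes. Of the members, 7 lay in that dimmer class, with a median log2 ratio of -0.37, and the 3 brighter ones (Tek, Kdr and Egfl7) had a median of -0.06.

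**Figure D2:**
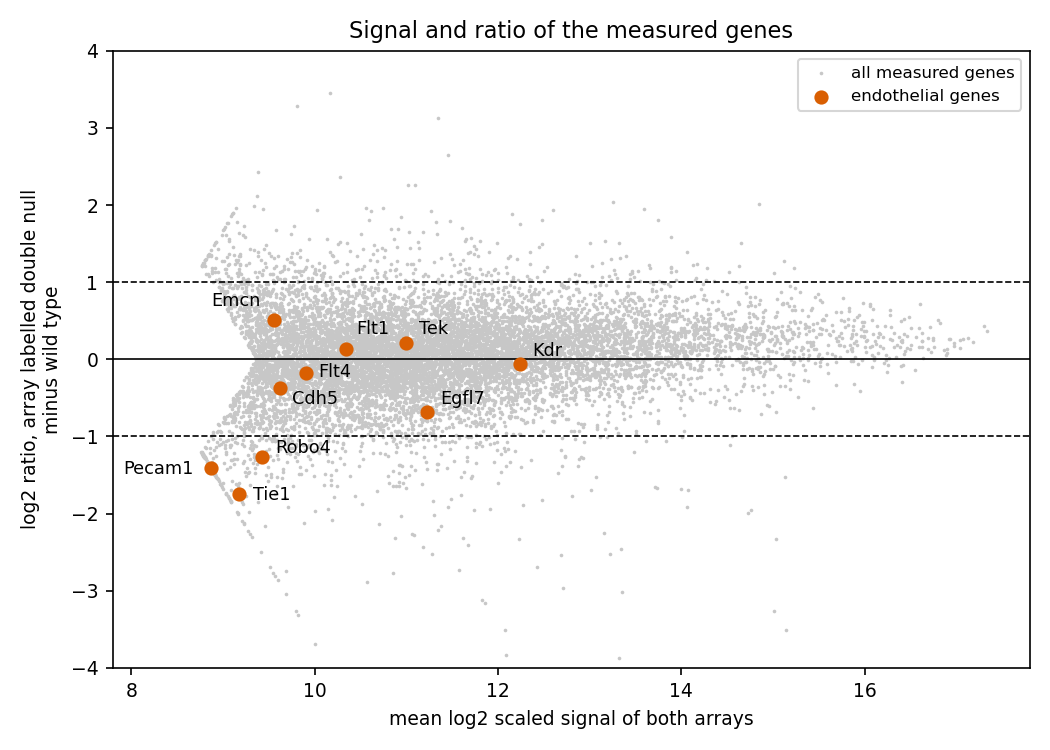
Log2 ratio (array labelled double null minus wild type) against the mean log2 scaled signal of both arrays, with all measured genes in grey and the 10 endothelial genes in orange; dashed lines mark 2-fold, and 9 genes lie beyond the plotted range of 4. Tie1, Pecam1 and Robo4 sit at the dim end below the lower line, where the floor forms the slanted edge of the grey points, and Kdr, the endothelial gene furthest to the right, lies near 0.

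The VEGF receptors were close to level by their representing probe sets. Kdr, which carries most VEGF-A signalling in endothelium, had signals of 4926 and 4718 (1449379_at), a log2 ratio of -0.06. Flt4, the receptor of the lymphatic ligands VEGF-C and VEGF-D, gave 1021 and 904 (1444052_at), a log2 ratio of -0.18. Its unmeasured probe set (1421442_at) gave 303 and 365. All of these differences were smaller than the spread between probe sets of one gene.

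Flt1, the high-affinity VEGF receptor that is also made in a soluble form, gave no single answer. Its representing probe set (1451756_at) had signals of 1234 and 1359, a log2 ratio of 0.14. The probe set 1419300_at had 1515 and 989, which is 1.53-fold lower (log2 ratio -0.62). The probe set 1440926_at had 745 and 154, the second under the floor, which is at least 2.60-fold lower. The unmeasured probe set 1454037_a_at had 288 and 391. Log2 ratios of the 4 probe sets spanned 1.82, wider than for any other member, and the annotation used here does not say which Flt1 transcripts each one reads. The mean log2 ratio over the 3 measured probe sets was -0.62, so the sign of the Flt1 value depends on the choice of probe set.

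Egfl7 was lower by 3 of its 4 probe sets. The representing probe set (1451428_x_at) had 3044 and 1892, which is 1.61-fold lower (log2 ratio -0.69). The next, 1435823_x_at, gave 2795 and 1933 (-0.53), and 1451427_a_at gave 1983 and 1215 (-0.71). Of these 3, the 1st and the last were designed against the same transcript record and are not independent, and all carry a suffix that marks probes not unique to 1 transcript. The dimmest, 1421335_a_at, went the other way, with 508 and 859 (0.76). Emcn, the sialomucin endomucin, was the highest member, with 631 and 897 (1425582_a_at), a log2 ratio of 0.51 that is about the size of the spread between probe sets.

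Ordered by log2 ratio, the members ran Tie1, Pecam1, Robo4, Egfl7, Cdh5, Flt4, Kdr, Flt1, Tek and Emcn. The widest gap between neighbours in this order was 0.58, between Robo4 and Egfl7. The SD of 0.51 is that of single ratios, and a difference between genes varies more, so this gap was not set apart from the spread. The place of Pecam1 is set by the floor, since without one its ratio of -2.80 is below that of Tie1. A higher floor also moved Tie1 and Robo4. Raised to the 60th percentile, it gave -0.70 for Robo4, -0.68 for Tie1 and -0.21 for Pecam1, while Egfl7 stayed at -0.69. The gap between Robo4 and Egfl7 was then nearly gone, and Tie1 was no longer the lowest member. In the order as reported, Robo4 was the last member past 2-fold (-1.27) and Egfl7 the first inside it (-0.69).

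In 5 lists of the vascular system, 88 further genes were measured with a median log2 ratio of 0.04 and 48.9% below 0. Of these, 1 passed 2-fold downwards (1.14%) and 1 upwards, against 4.22% and 3.55% of all measured genes. These lists, like the members, were chosen with earlier results of these data known. They also hold genes that are expressed outside endothelium, such as most of the junction partners, so their median does not describe endothelium alone.

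Among ligands, co-receptors and partners of the VEGF and angiopoietin systems, 1 of 16 measured genes passed 2-fold downwards and 0 upwards, and the median was -0.14. Svep1, an extracellular matrix protein needed for lymphatic vessel remodelling, had 2551 and 1102 (log2 ratio -1.21). Vegfa, the main ligand of Kdr and Flt1, had 3319 and 1689 (-0.97), and Angptl1, an angiopoietin-like protein, had -0.82. The angiopoietins themselves, Angpt1 and Angpt2, were named as the ligands of Tek after their values were seen, with -0.07 and -0.32. On the other side, Vegfd, a ligand of Flt4, had 0.66, with a median of -0.09 over its other 2 measured probe sets. Vegfb, a ligand of Flt1, had 0.65 and Nrp1, a co-receptor of Kdr, 0.65, with a median of 0.01 over the other 3 probe sets of Nrp1; both were added after their values were seen. Pgf was not measured.

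Of 25 other endothelial surface and secreted genes none passed 2-fold in either direction, and the median was 0.11. Those furthest below 0 were Ecscr, an endothelial adhesion and migration regulator, at -0.74 and Eng, the TGF-beta co-receptor endoglin, at -0.68 with -0.36 in its other probe set. Those furthest above were Esm1, a proteoglycan of sprouting endothelium, at 0.93 and Mmrn2, a ligand of Cd93 in the vascular matrix, at 0.89 with a median of -0.69 in its other measured probe sets. Of the 25 genes 11 were below 0 and 14 above. Those below included Cd34 at -0.62, Esam at -0.42, Cd93 at -0.40, Icam2 at -0.39, Plvap at -0.37 and Vwf at -0.26. Those above included Arhgef15 at 0.50, Aplnr at 0.50 and Aqp1 at 0.30. In the other measured probe set of each, Cd93 had -0.76 and Aplnr -0.67. The genes in these lines were named after their values were seen. Acvrl1, Nos3, Sele, Selp and Rasip1 were not measured.

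Partners of Cdh5 and Pecam1 at cell junctions were nearly level, with a median of 0.10 over 22 measured genes and none past 2-fold. Cldn5, the tight junction claudin of endothelium, had 2943 and 2146 (-0.46), Jam3 had -0.43, Ocln 0.52 and Cdh2 0.37. Most of these genes are also expressed in epithelium or mesenchyme. Transcription factors of endothelium had a median of -0.05 over 20 measured genes, with none at least 2-fold lower. Hey2, a Notch target of arteries, had 456 and 1079 and was 2.37-fold higher, Lmo2 had -0.56, Hey1 0.38 and Etv6, of the ETS family, -0.31. Erg, Fli1, Etv2, Tal1, Lyl1 and Hhex were not measured, so the ETS factors most restricted to endothelium gave only dim values. By their brightest probe sets, Erg, Fli1 and Etv2 lay above the floor but under the measured level on both arrays. Erg had 486 and 521 (0.10), Fli1 374 and 483 (0.37) and Etv2 514 and 298 (-0.79). Of the lymphatic genes 7 were measured with a median of 0.00 and none past 2-fold, among them Pdpn at -0.38 and Lyve1 at 0.16, with -0.43 in the other measured probe set of Lyve1.

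**Figure D3:**
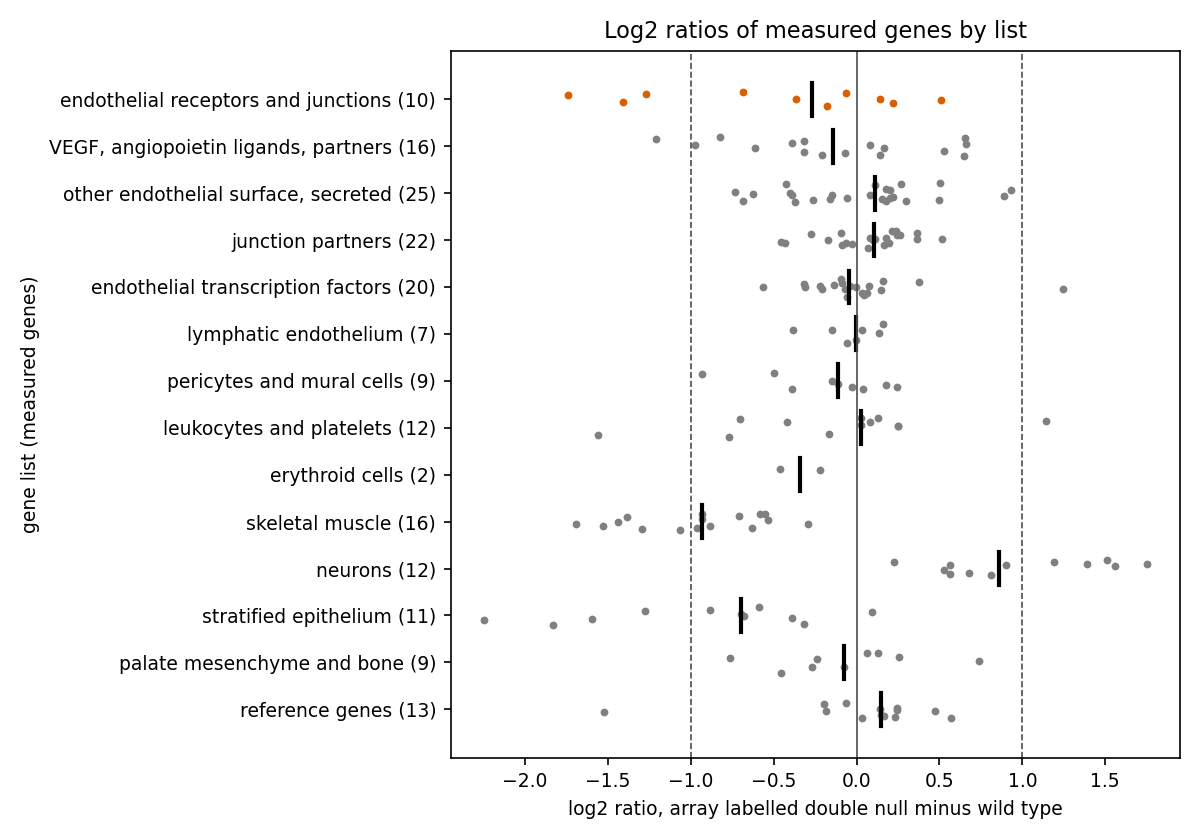
Log2 ratio (array labelled double null minus wild type) of each measured gene, 1 point a gene, in 14 lists with the number measured in brackets; vertical bars are medians and dashed lines mark 2-fold. The endothelial receptor and junction genes (orange) spread from -1.74 to 0.51, while the other vascular lists centre between -0.14 and 0.11 and skeletal muscle, epithelium and neurons lie to either side.

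Markers of the cells around vessels and of blood cells moved little as lists. Pericyte and mural genes had a median of -0.11 over 9 measured genes, with 6 below 0, 3 above and none past 2-fold by its representing probe set. Tagln, a smooth muscle actin-binding protein, had -0.94. Kcnj8 had -0.50, and Notch3 had -0.39 with -0.69 in its other measured probe set. Rgs5, a pericyte marker, had 0.25, with 1.31 (past 2-fold) and 0.24 in its other measured probe sets. For leukocytes and platelets, which also carry Pecam1, 12 of 19 listed genes were measured, with deposited signals that summed to 70457 in wild type and 61425 in the labelled double null. The median was 0.03. C1qa, a complement gene of macrophages, was lower by at least 2.94-fold, and Cd14, a receptor for bacterial lipopolysaccharide, was 2.21-fold higher. The related C1qb and C1qc were added after their values were seen. C1qb had 0.13, with a median of -0.01 over its other measured probe sets, and C1qc, not measured, had 0.16. Itga2b, an integrin of platelets, had -0.77 and Ptprc, the pan-leukocyte marker, 0.25, both chosen after their values were seen. The part of blood cells in the Pecam1 value was not tested. Only 2 erythroid genes were measured, Slc4a1 at -0.46 and Alas2 at -0.22. The measured Slc4a1 probe sets other than the representing one had a median of 0.52.

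The arrays also differed in tissue content as their markers read it. All 16 skeletal muscle genes were below 0, with a median of -0.93 and summed deposited signals of 235442 and 120778, and Tnnc2 had the lowest ratio at -1.69. Epithelial genes had a median of -0.70 over 11 measured genes and neuronal genes 0.86 over 12, whereas genes of palate mesenchyme and bone, of which 9 of 10 listed were measured, had -0.08, with Prrx2 at -0.76 and Col1a1 at 0.74. Muscle and nerve carry capillaries of their own, and the part of tissue content in the endothelial values was not tested. The genes named as null did not distinguish the arrays: deposited signals of Myod1 were 1989 and 1620 and the log2 ratio was -0.22. Myf5 was not measured, with deposited signals of 531 and 518. Sex-linked transcripts also differed. Eif2s3y of the Y chromosome was higher by at least 9.74-fold for the labelled double null, with deposited signals of 11.1 and 2722. All 3 Xist probe sets were lower, with deposited signals of 34709 and 16510, 15324 and 8249, and 1715 and 600. The array labelled double null thus had signal of both Eif2s3y and Xist, whereas wild type had Xist with Eif2s3y under the floor. Whether either RNA came from fetuses of both sexes was not tested. Sex and genotype cannot be told apart on these arrays.

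**Figure D4:**
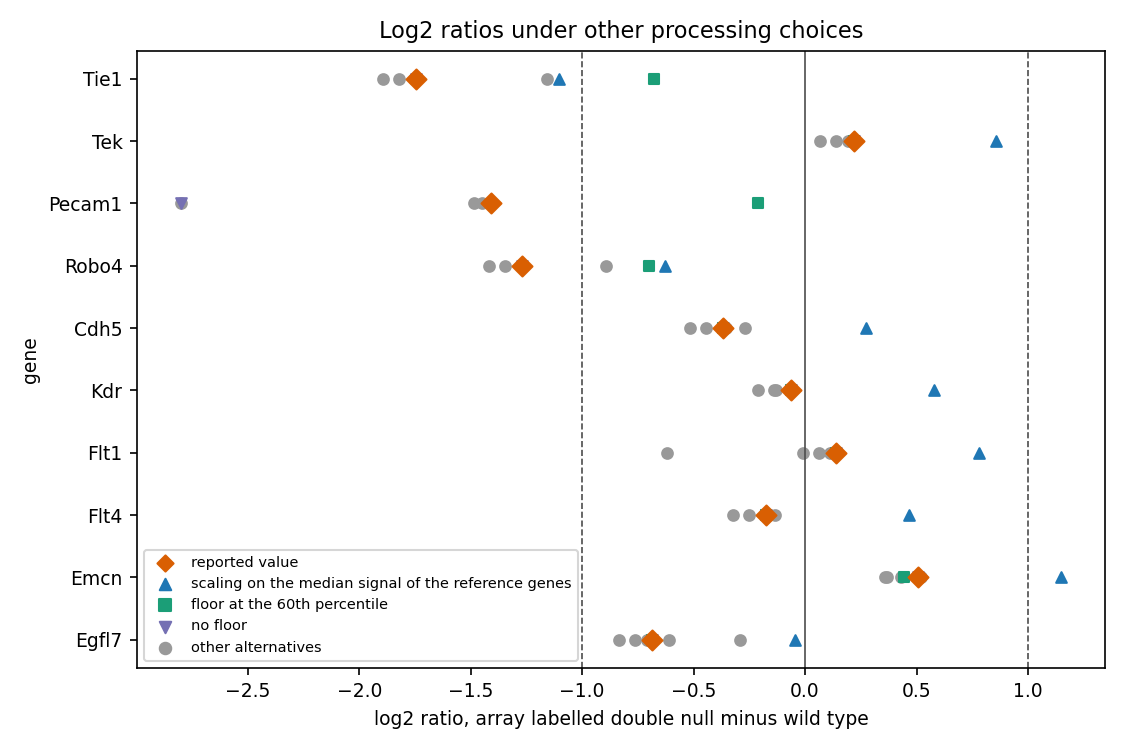
Log2 ratio (array labelled double null minus wild type) of the 10 endothelial genes as reported (diamonds) and under up to 12 other processing choices; triangles pointing up use the reference genes' median signal as the scale, squares the floor at the 60th percentile and triangles pointing down no floor. Tie1, Pecam1 and Robo4 stay below 0 under each choice that measures them, while a floor at the 60th percentile brings all 3 inside 2-fold.

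Scaling set the position of every member. With the median signal of 13 reference genes as the scale, the median of all measured genes was 0.73 and the members lay above their reported values. Cdh5, Flt4, Kdr and the members' median then turned above 0 (0.27, 0.47, 0.58 and 0.47), Emcn at 1.15 was past 2-fold higher, and Robo4 at -0.63 was inside 2-fold. Relative to the median of all genes under that scaling, Tie1 was at -1.83, Robo4 at -1.36 and the members' median at -0.27, and Pecam1 was not measured. With the floor at the 60th percentile none of the members passed 2-fold.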

How the data were processed

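Total RNA was labelled as biotinylated cRNA and hybridised to Affymetrix arrays, per the labels' protocols. The deposited table holds 1 linear signal intensity for each probe set. The authors used MAS5, as the submitters' processing notes list it; its version and any genome build are not given in the sources used here. The deposited 2% trimmed mean was 1500.01 on both arrays. Detection calls were not used here. Of the probe sets, 34945 had 1 gene in the platform annotation, 932 several and 9160 none, and 64 were controls, left out of percentiles and genes.

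Arrays were scaled on the median of the probe sets in the upper range (50th percentile or more) of each array, with factors of 0.974 for wild type and 1.03 for the other, floored at the 40th percentile and put on the log2 scale. No test was possible, so genes were counted by size (at least 2-fold). Named genes were all members and, from each other list, up to 4 measured genes with the largest absolute ratios and 1 that went the other way (at most 2 for tissue and blood lists); genes chosen after their values were seen are named as such. Members and lists were chosen with earlier results of these data known. Alternatives were 4 scalings, 4 floors, 2 ways to represent a gene, 2 filters and 2 sizes. Steps were tested on simulated data. Python 3.11.15, numpy 2.4.6, pandas 2.3.3 and matplotlib 3.10.9 were used. The number of arrays limits the precision.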

Additional observations from a re-analysis of the deposited data

How the results depend on the processing

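Tie1, Pecam1 and Robo4 stayed below 0 under every alternative that measured them. With the reference genes' median signal as the scale, log2 ratios were -1.10 for Tie1, 0.86 for Tek, -0.63 for Robo4, 0.27 for Cdh5, 0.58 for Kdr, 0.78 for Flt1, 0.47 for Flt4, 1.15 for Emcn and -0.045 for Egfl7, the members' median was 0.47, and of 9 measured members 1 passed 2-fold downwards and 1 upwards; this scale shifted the median of all genes to 0.73. The floor at the 60th percentile gave -0.68 for Tie1, -0.21 for Pecam1 and -0.70 for Robo4, with 0 members at least 2-fold lower and 0 higher. With the floor added as an offset Tie1 had -1.16 and Robo4 -0.89, inside 2-fold. Without a floor, or with one at the 20th percentile, Pecam1 had -2.80. The mean over measured probe sets gave -0.62 for Flt1. Only 3 members were left where the brighter array had to reach the 75th percentile, and 0 of them were at least 2-fold lower; the 3-fold rule counted 1 lower, and the 1.5-fold rule 4. The lower share of all genes past 2-fold was 54.3%, and 65.0% as deposited, 3.72% on the reference genes' median signal and 74.7% on their median ratio. Over all measured genes the count at least 2-fold lower was 264 rather than 474 with the floor at the 60th percentile and the same with the offset, and that at least 2-fold higher was 262 and 198 rather than 399. The median signal scale gave 121 lower and 3128 higher, the median ratio scale 236 higher. The cause of these differences was not tested. Probe sets without suffixes gave no value for Pecam1, Emcn and Egfl7, and the 75th percentile filter none for the 7 dimmer members. No paired analysis was possible because there was 1 array per genotype, and no replicate could be left out.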
